A study of Mus musculus with 6 samples.

Results

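The genes described here, apart from Mrps36, encode proteins of the mitochondrial ribosome, and 76 of them, Mrps36 included, were measured in quadriceps of K15SKO and MyoCre mice. They were taken from the 23314 genes of the expression table as every symbol of the form Mrpl or Mrps with a number, pseudogene names left out, and a mean of at least 1 FPKM over the 6 libraries. FPKM counts sequenced fragments relative to the length of the transcript and to all fragments mapped, so that genes of different length can be compared. Of 77 such symbols, 76 reached that level, and all 76 were among the 11607 genes tested. The quadriceps is the extensor muscle of the knee, and each library holds its RNA from mice of 2 months.

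K15SKO mice had the genotype Myogenin-Cre/+;K15F/F, in which Klf15 is floxed and can be cut out by Cre recombinase. MyoCre mice had the genotype Myogenin-Cre/+ and were the control, so both groups carried the same Cre. Myogenin is switched on in differentiating muscle cells, so that cells of other types in the quadriceps are not the target of the deletion. Klf15 encodes a zinc finger transcription factor known for its part in amino acid, glucose and lipid use in muscle. The libraries, 3 per group, are numbered by their titles and always given in the order 1 to 3; the design text gives n = 4, and only these 6 libraries were analysed here. The labels do not tie the libraries to separate mice, so each p-value measures the spread between these samples.

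The mitochondrial ribosome translates the few messenger RNAs that the mitochondrial genome encodes, all of them for subunits of the respiratory chain and the ATP synthase. Its ribosomal RNAs are transcribed inside the organelle, whereas its proteins are encoded in the nucleus, made in the cytosol and imported. The small subunit binds and decodes the message, and the large subunit forms the peptide bond. Some of the proteins have relatives in bacterial ribosomes, and others were acquired in the mitochondrial lineage. Muscle fibres are rich in mitochondria and draw on this translation for their respiratory chain.

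Promoters of some of these genes are shown first, since GABP, YY1 and NRF1 are known as regulators of nuclear genes for mitochondria and their letters can be counted there. RefSeq (GRCm38.p6) windows from 250 bases before to 50 bases after the annotated start were matched by symbol for 67 of the 76 genes. The 4 windows printed belong to genes whose K15SKO 1 value lay above every MyoCre value and that hold the ETS letters, and they were chosen after their values were seen. Each reads 5′ to 3′ on the strand of the gene. Capitals mark CCGGAAG, the core bound by ETS factors such as GABP, or its reverse complement CTTCCGG, and, in Mrps12, GCCATCTT, the reverse complement of the YY1 letters AAGATGGC.
Mrps12: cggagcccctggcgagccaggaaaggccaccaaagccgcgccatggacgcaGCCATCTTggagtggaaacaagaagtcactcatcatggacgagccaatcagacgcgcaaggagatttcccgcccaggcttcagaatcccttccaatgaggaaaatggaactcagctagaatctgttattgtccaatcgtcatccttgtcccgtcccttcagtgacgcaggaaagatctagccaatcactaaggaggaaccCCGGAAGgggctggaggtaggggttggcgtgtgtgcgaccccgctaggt
Mrps23: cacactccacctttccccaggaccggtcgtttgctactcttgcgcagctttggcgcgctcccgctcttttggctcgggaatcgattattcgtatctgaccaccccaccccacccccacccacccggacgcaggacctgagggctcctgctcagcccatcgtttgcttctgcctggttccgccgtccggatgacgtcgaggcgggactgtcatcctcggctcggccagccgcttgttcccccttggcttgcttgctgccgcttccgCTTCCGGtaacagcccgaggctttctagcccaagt
Mrps18c: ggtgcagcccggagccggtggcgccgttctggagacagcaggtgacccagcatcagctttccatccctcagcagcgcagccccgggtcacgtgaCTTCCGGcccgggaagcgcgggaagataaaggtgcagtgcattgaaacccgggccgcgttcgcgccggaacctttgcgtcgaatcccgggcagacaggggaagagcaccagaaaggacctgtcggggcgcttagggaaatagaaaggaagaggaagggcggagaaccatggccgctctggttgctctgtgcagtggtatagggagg
Mrpl52: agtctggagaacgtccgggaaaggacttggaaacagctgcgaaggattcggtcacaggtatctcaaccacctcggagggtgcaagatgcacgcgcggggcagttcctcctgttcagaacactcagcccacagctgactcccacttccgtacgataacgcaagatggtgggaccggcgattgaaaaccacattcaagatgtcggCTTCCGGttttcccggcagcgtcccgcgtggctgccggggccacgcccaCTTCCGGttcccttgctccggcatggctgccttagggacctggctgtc

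The window of Mrps12 lies at chr7:28741772-28742071 on the minus strand, with the ETS letters beginning at base 2 after the start and the YY1 letters at base -199. That of Mrps23 lies at chr11:88204138-88204437 on the plus strand, with the ETS letters at base 16. That of Mrps18c lies at chr5:100798509-100798808 on the plus strand, with the ETS letters at base -156. Mrpl52, at chr14:54426659-54426958 on the plus strand, holds the ETS letters at bases -47 and 3.

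Letters were searched on both strands, each motif on its own, so that a base may belong to more than 1 match. ETS letters were in 24 of the 67 windows, or 35.8%, against 19.2% of 8260 windows of tested genes and 9.12% of all 27025 windows. YY1 letters were in 12 windows, or 17.9%, against 5.25% of tested genes and 2.88% of all. NRF1 letters, GCGCATGC, were in 8 windows, or 11.9%, against 5.86% of tested genes and 2.80% of all. By contrast, the GC box letters CCCCGCCC were in 15 windows, or 22.4%, against 33.6% of tested genes, and the E-box CACGTG was in 5, or 7.46%, against 10.8%. The windows of the mitochondrial ribosomal protein genes had a median GC content of 58.0%, and those of tested genes 61.0%. These matches describe letters in a window and no binding was measured.

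The library checks that touch the results are these. Klf15 measured 2.22, 21.7 and 5.32 FPKM in the K15SKO libraries, against 35.2, 28.4 and 30.5 FPKM in the MyoCre libraries. It was lower in every K15SKO library, but K15SKO 2 kept 69.3% of the MyoCre mean, while K15SKO 1 and 3 kept 7.08% and 16.97%. Its log2 difference was -2.06 ± 0.66 (SE, limma adjusted p = 0.273), and exact permutation of the libraries, two-sided, returned p = 0.1, the lowest value that 20 regroupings allow. Depth read from the steps between low values was 0.779, 1.57 and 0.901 times that of MyoCre 1 in K15SKO 1 to 3, against 1.08 and 1.33 times in MyoCre 2 and 3, and absolute depth is unknown. These depths are rough, since the most frequent ratio held only 14 of 1201, 49 of 1577 and 26 of 1552 low values in K15SKO 1 to 3. In MyoCre 2 and 3 it held 24 of 1749 and 32 of 1795. Muscle markers identified the tissue: the 7 of 10 that were in the table summed to 28400, 29450 and 49790 FPKM in K15SKO 1 to 3 and to 41220 to 49060 FPKM in MyoCre, so that K15SKO 1 and 2 lay below every MyoCre library.

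Other cell types differed between the libraries, K15SKO 2 and K15SKO 1 standing apart from the rest. The 15 liver markers summed to 78.4, 6439 and 13.6 FPKM in K15SKO 1 to 3, with none at 0, against 4.51, 0.970 and 1.23 FPKM in the MyoCre libraries, where 2, 6 and 5 were at 0. The 10 macrophage markers summed to 342.4, 191.7 and 40.5 FPKM in K15SKO 1 to 3 and to 44.2 to 53.4 FPKM in MyoCre, none at 0. The 6 markers of regenerating fibres summed to 72.9, 62.1 and 12.2 FPKM in K15SKO 1 to 3 and to 6.70 to 7.96 FPKM in MyoCre, none at 0. The 8 adipocyte markers summed to 31.1 to 54.8 FPKM in K15SKO and to 175.8 to 490.2 FPKM in MyoCre, none at 0. The 6 endothelial markers summed to 26.2 to 52.8 FPKM in K15SKO and to 38.3 to 48.0 FPKM in MyoCre. The 5 fibro-adipogenic ones summed to 149.4 to 269.9 FPKM in K15SKO and to 164.0 to 187.1 FPKM in MyoCre, but went opposite ways. Dcn and Pdgfra were below MyoCre in every K15SKO library. Col1a1, Col3a1 and Lum lay above every MyoCre library in K15SKO 1 and 2 and not in K15SKO 3. K15SKO 2 thus stood apart in both Klf15 and liver markers; what sets it apart was not tested, and the counts below are also given without it. The part of these cell types in the values below was not tested either, and in whole tissue fewer cells of a type and less RNA per cell cannot be told apart.

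The comparison of K15SKO with MyoCre asks whether transcripts of the mitochondrial ribosome differ with the genotype meant to delete Klf15 in muscle. No single gene of the 76 passed the test, but most of them had a higher mean in K15SKO. Limma, with Benjamini-Hochberg adjustment over all 11607 genes, called 0 of the 76 at an adjusted p under 0.05. It called 6 genes in all, or 0.0517%, with 0.0172% higher in K15SKO and 0.0345% lower; the adjusted p of the 76 ran from 0.269 to 0.995. At an unadjusted p under 0.05, 15 were higher in K15SKO, or 19.7%, and 0 were lower, while over all genes 8.43% were higher and 8.12% lower.

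Signs and overlaps of the groups were counted next. The log2 difference was above 0 for 63 of the 76 genes, or 82.9%, against 48.0% of all genes tested and 47.2% of those with a mean of at least 5 FPKM. In 25 genes, or 32.9%, all 3 K15SKO libraries lay above all 3 MyoCre libraries, against 13.4% of all genes. In 0 genes did all 3 K15SKO libraries lie below, against 11.3% of all genes. The shares of all genes above 0 and without overlap varied with transcript length and are set out by length class below. The median log2 difference was 0.16 over the 76 genes, with a range of -0.20 to 0.49, and -0.015 over all genes tested. Without K15SKO 2 the median log2 difference was 0.23, against 0.004 over all genes, and 71 of the 76 were above 0, against 50.6% of all genes. K15SKO 1 and 3 both lay above every MyoCre library for 50 of the 76, against 18.0% of all genes, and both below for 0, against 14.4%. Limma called 0 of the 76, where it called 0.0345% of all genes, 0.0172% in each direction; at an unadjusted p under 0.05, 18 were higher and 0 lower, where 11.1% of all genes passed, 6.16% higher and 4.98% lower.

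Calls depended on K15SKO 3 and on the weights of the libraries. Without K15SKO 3 limma called 6 of the 76, all higher, where 23.6% of all genes were called, 10.8% higher and 12.8% lower. With the libraries weighted by their spread (array weights) it called 7 of the 76, all higher, where 20.7% of all genes were called, 10.7% higher and 9.94% lower. Under these weights the log2 difference of Klf15 was -1.37, against -2.06 without them. The deviations of Klf15 from its MyoCre mean on log2(FPKM + 1) were -3.32, -0.50 and -2.35 in K15SKO 1 to 3. The weights themselves are not given here, and the part of each library in these calls was not tested. At an unadjusted p under 0.05, 22 of the 76 were higher and 2 lower without K15SKO 3, against 17.8% and 23.4% of all genes, and 19 were higher and 2 lower with array weights, against 20.3% and 21.0%.

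**Figure D1:**
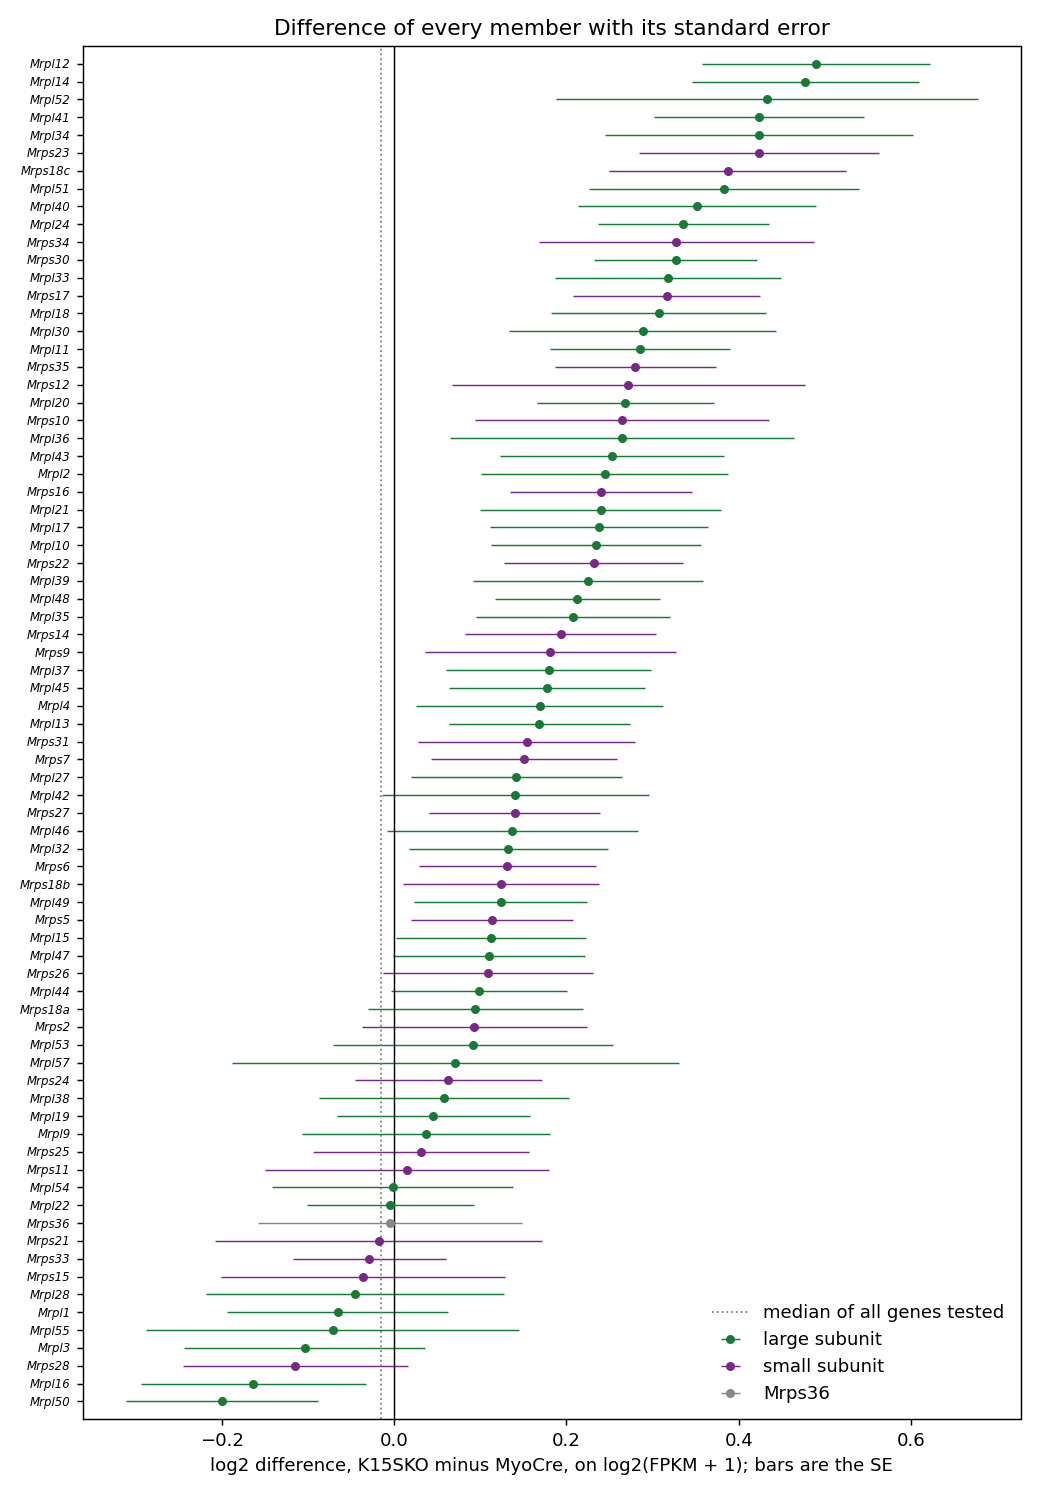
Log2 difference of each of the 76 genes, K15SKO minus MyoCre, on log2(FPKM + 1), with its standard error as a bar; colours give the subunit and the dotted line the median of all genes tested. The differences run from 0.49 for Mrpl12 to -0.20 for Mrpl50, and 63 of them lie above 0.

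The K15SKO libraries differed in how far they stood from MyoCre. The median deviation of the 76 genes from their MyoCre mean, on log2(FPKM + 1), was 0.26, 0.069 and 0.19 in K15SKO 1 to 3, against -0.007, -0.021 and 0.024 in MyoCre 1 to 3. K15SKO 1 and 3 thus stood well above the MyoCre libraries, and K15SKO 2 stood nearest to them. K15SKO 2 is also the K15SKO library with most Klf15 left and with the highest liver markers, and the part of either was not tested. All genes tested had medians of -0.040, -0.057 and 0.032 in K15SKO 1 to 3 and of -0.035, -0.009 and 0.042 in MyoCre 1 to 3. Summed over the 76 genes, the level was 4152, 3451 and 3969 FPKM in the K15SKO libraries, against 3371, 3257 and 3431 FPKM in the MyoCre libraries. Only K15SKO 2 came close to the highest MyoCre library in this unscaled sum. Over all genes measured, FPKM summed to 401505, 396375 and 466756 in K15SKO 1 to 3. In MyoCre 1 to 3 these totals were 399372, 397426 and 423214. K15SKO 3 had the largest total, and the sums over the 76 genes were not scaled to the totals. Scaled to them, K15SKO 3 rather than K15SKO 2 would lie nearest to MyoCre in the sum.

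**Figure D2:**
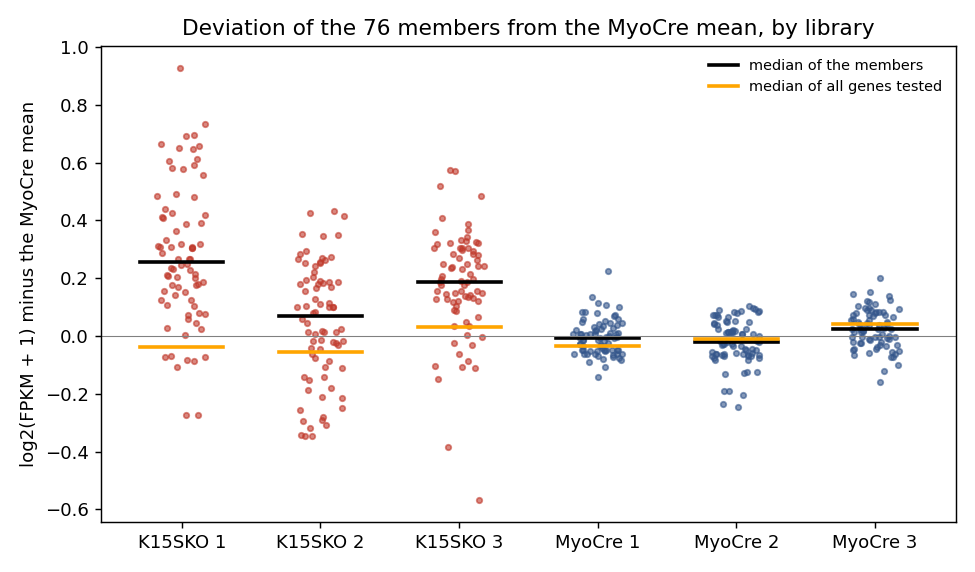
Deviation of each of the 76 genes from its MyoCre mean on log2(FPKM + 1), by library; points are genes, black bars their median and orange bars the median of all genes tested. The genes lie highest in K15SKO 1 and 3, with medians of 0.26 and 0.19, and spread less in the MyoCre libraries.

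The libraries also took turns as the highest. K15SKO 1 was the highest of the 6 libraries for 39 of the 76 genes, or 51.3%, against 24.3% of all genes. K15SKO 3 was the highest for 32, or 42.1%, against 21.2% of all genes. K15SKO 2 was the highest for 1, against 14.2% of all genes, and it was the lowest for 21, or 27.6%, against 21.9%. MyoCre 1 to 3 were the highest for 0, 1 and 3 genes, against 5.08%, 12.8% and 22.3% of all genes. All 3 K15SKO libraries lay above the MyoCre mean for 39 genes, or 51.3%, against 23.6% of all genes, and none of them did for 1 gene, Mrpl50.

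Among the 15 genes at an unadjusted p under 0.05, the 10 with the smallest p are given by subunit. In the large subunit they begin with Mrpl12, a relative of the bacterial L7/L12 stalk protein that recruits translation factors and that has also been found with the mitochondrial RNA polymerase. Mrpl12, at chr11:120484613-120489065 on GRCm38, had 131.8, 100.9 and 118.9 FPKM in the K15SKO libraries, against 83.7, 78.7 and 85.9 FPKM in the MyoCre libraries. The groups did not overlap, and the lowest K15SKO library was again K15SKO 2. Its mean was 117.2 ± 15.5 FPKM in K15SKO and 82.8 ± 3.72 FPKM in MyoCre (SD, n = 3 each), a log2 difference of 0.49 ± 0.13 (SE) that did not pass the test (limma adjusted p = 0.269).

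Mrpl14, a protein of the face that joins the small subunit and the site where the assembly factor Malsu1 binds, had the next largest difference. It was at 134.1, 104.7 and 130.8 FPKM in the K15SKO libraries, against 89.1, 89.3 and 84.8 FPKM in the MyoCre libraries. The groups did not overlap, with K15SKO 2 again nearest to MyoCre, and the log2 difference was 0.48 ± 0.13 (SE, limma adjusted p = 0.272). Its exons overlap those of Tmem63b on the other strand, which averaged 30.1 FPKM in K15SKO and 23.2 FPKM in MyoCre; whether the counting used strand is not given, so reads of the pair cannot be told apart.

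Mrpl41, a protein with no bacterial relative, stood at 48.2, 38.5 and 40.5 FPKM in the K15SKO libraries, against 29.8, 33.3 and 30.5 FPKM in the MyoCre libraries, a log2 difference of 0.42 ± 0.12 (SE). Mrps30 was named for the small subunit but sits in the large one, and its values lay close together within each group. It was at 32.2, 31.3 and 29.0 FPKM in the K15SKO libraries, against 25.0, 23.9 and 24.2 FPKM in the MyoCre libraries, a log2 difference of 0.33 ± 0.09 (SE). The groups of both genes did not overlap, and in Mrps30 the lowest K15SKO library was K15SKO 3. For both Mrpl41 and Mrps30 the adjusted p by limma was 0.272. The exons of Mrps30 overlap those of B430218F22Rik on the other strand, so its value carries the same doubt.

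Mrpl24, whose bacterial relative is among the first to bind the large ribosomal RNA, measured 45.5, 43.6 and 40.3 FPKM in the K15SKO libraries, against 33.1, 34.99 and 33.7 FPKM in the MyoCre libraries. Mrpl11, at the base of the stalk, had 20.6, 18.7 and 17.4 FPKM in the K15SKO libraries, against 14.7, 16.3 and 14.8 FPKM in the MyoCre libraries. In both genes K15SKO 3 was the lowest of its group and still lay above every MyoCre library. The log2 differences were 0.34 ± 0.10 and 0.29 ± 0.10 (SE), with limma adjusted p of 0.272 and 0.284.

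In the small subunit, Mrps23, a mitochondria-specific protein, had the largest difference. It was at 98.0, 83.8 and 71.4 FPKM in the K15SKO libraries, against 60.6, 62.7 and 63.1 FPKM in the MyoCre libraries. K15SKO 1 was the highest and K15SKO 3 the lowest of its group, and both lay above every MyoCre library. The log2 difference was 0.42 ± 0.14 (SE, limma adjusted p = 0.276), and without K15SKO 3 the adjusted p was 0.022. Mrps18c, 1 of the relatives of bacterial S18 and the one that sits at the usual place in the small subunit, stood at 52.2, 46.1 and 38.3 FPKM in the K15SKO libraries, against 33.2, 33.5 and 36.4 FPKM in the MyoCre libraries. It showed the same order of K15SKO libraries as Mrps23, and its log2 difference was 0.39 ± 0.14 (SE, limma adjusted p = 0.281, and 0.024 without K15SKO 3). In both genes K15SKO 3 was the lowest K15SKO library, so leaving it out raises the difference. In that setting 10.8% of all genes were called higher, so these adjusted p do not single out Mrps23 or Mrps18c.

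Mrps17, a relative of bacterial S17, was at 50.9, 42.7 and 46.9 FPKM in the K15SKO libraries, against 36.0, 38.7 and 37.3 FPKM in the MyoCre libraries. Mrps35, a mitochondria-specific protein and among the 4 lowest transcripts, measured 5.87, 5.29 and 5.94 FPKM in the K15SKO libraries, against 4.54, 4.77 and 4.24 FPKM in the MyoCre libraries. Both were lowest in K15SKO 2 among the K15SKO libraries and neither overlapped with MyoCre. Their log2 differences were 0.32 ± 0.11 and 0.28 ± 0.09 (SE), each with a limma adjusted p of 0.279.

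**Figure D3:**
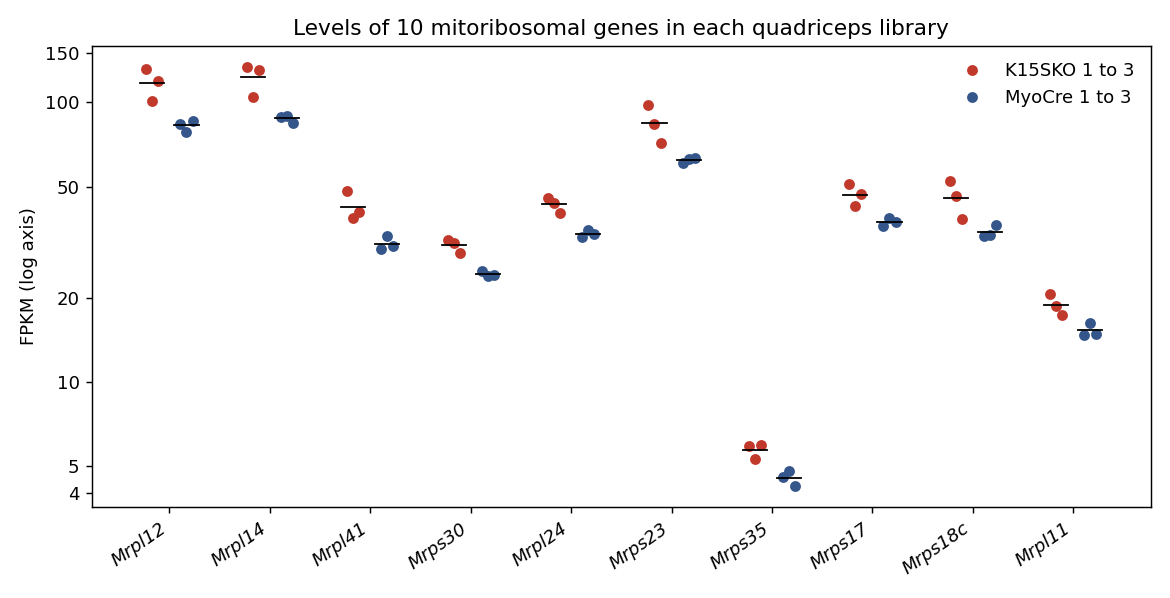
FPKM on a log axis of the 10 genes with the smallest p among those whose groups do not overlap, with K15SKO 1 to 3 left of MyoCre 1 to 3 and a bar at each group mean. In every gene the lowest K15SKO library lies above the highest MyoCre library, by 38.3 against 36.4 FPKM in Mrps18c and by 100.9 against 85.9 FPKM in Mrpl12.

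Genes of both subunits and of either origin had similar medians. The large subunit had 41 of 49 genes above 0 and a median log2 difference of 0.18, and the small subunit had 22 of 26 above 0 and a median of 0.14. Groups did not overlap in 18 large subunit genes, or 36.7%, and in 7 small subunit genes, or 26.9%. All of these were higher in K15SKO, as were 13.4% of all genes. Genes with a bacterial relative had a median of 0.17, with 38 of 47 above 0, and mitochondria-specific genes also had 0.17, with 25 of 28 above 0. These classes were compared by their counts and medians, with no test between them, and Mrps36 was placed in none of them.

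Mrpl12, Mrps30 and Mrps18c above were also chosen for their role; Mrps12, Mrps7 and Mrpl3, chosen likewise, had overlapping groups. Mrps12, the relative of S12 at the decoding centre, had 82.2, 58.1 and 47.3 FPKM in the K15SKO libraries, against 53.2, 48.6 and 49.2 FPKM in the MyoCre libraries. K15SKO 1 lay far above MyoCre and K15SKO 3 just below it, so the groups overlapped, and the log2 difference was 0.27 ± 0.20 (SE, limma adjusted p = 0.470). Mrps7, which binds the small ribosomal RNA in the head of the subunit, was at 52.1, 48.7 and 52.9 FPKM in the K15SKO libraries, against 47.2, 42.1 and 49.1 FPKM in the MyoCre libraries (log2 difference 0.15, limma adjusted p = 0.451). Mrpl3, near the centre where peptide bonds form, stood at 14.3, 12.03 and 17.2 FPKM in the K15SKO libraries, against 15.8, 14.8 and 16.0 FPKM in the MyoCre libraries (log2 difference -0.10, limma adjusted p = 0.675). Both genes had overlapping groups, with K15SKO 3 the highest library of all.

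In the other relatives of S18 the groups overlapped. Mrps18a, which sits in the large subunit, was at 80.2, 66.8 and 85.2 FPKM in the K15SKO libraries, against 70.7, 72.1 and 73.5 FPKM in the MyoCre libraries. Mrps18b measured 18.9, 17.99 and 21.9 FPKM in the K15SKO libraries, against 17.2, 17.03 and 19.3 FPKM in the MyoCre libraries. K15SKO 2 was the lowest K15SKO library in each, and the log2 differences were 0.09 and 0.12 (limma adjusted p of 0.670 and 0.539). Mrps36 carries the family name but is now known as a part of the 2-oxoglutarate dehydrogenase complex. It had 24.9, 17.1 and 18.4 FPKM in the K15SKO libraries, against 20.6, 19.1 and 20.2 FPKM in the MyoCre libraries, so that K15SKO libraries lay on both sides of MyoCre. Mrps36 also has pseudogene copies in the table, at means of 26.7 and 23.7 FPKM, between which reads may have been split.

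Levels ranged 71.1-fold between genes, and their order was shared by the libraries. The median gene was at 37.6 FPKM, 44 of the 76 were within 2-fold of it, and the Spearman correlation of the 76 levels between any 2 libraries was 0.964 to 0.995. The 4 highest genes, Mrpl42, Mrps21, Mrpl33 and Mrpl30, held 21.8% of the summed FPKM. Mrpl42, a mitochondria-specific protein of the large subunit, was at 316.1, 242.9 and 337.4 FPKM in the K15SKO libraries, against 267.9, 257.1 and 280.6 FPKM in the MyoCre libraries. Mrps21, a relative of bacterial S21, stood at 178.9, 150.7 and 238.9 FPKM in the K15SKO libraries, against 188.4, 172.8 and 205.6 FPKM in the MyoCre libraries. In both, K15SKO 2 was the lowest and K15SKO 3 the highest of all 6 libraries.

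The other 2 of the highest genes leaned to K15SKO in every library. Mrpl33, a short basic protein related to bacterial L33, was at 219.6, 170.4 and 202.0 FPKM in the K15SKO libraries, against 160.7, 158.7 and 152.4 FPKM in the MyoCre libraries (log2 difference 0.32 ± 0.13 SE, limma adjusted p = 0.302). Mrpl30 measured 140.7, 124.6 and 178.9 FPKM in the K15SKO libraries, against 117.7, 120.1 and 121.1 FPKM in the MyoCre libraries (log2 difference 0.29 ± 0.15 SE, limma adjusted p = 0.359). Neither pair of groups overlapped, and K15SKO 2 was nearest to MyoCre in each.

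At the low end stood Mrps25, Mrpl19, Mrps35 and Mrps26. Mrps25, the gene nearest above the level threshold with a mean of 3.99 FPKM, had 4.18, 3.32 and 4.68 FPKM in the K15SKO libraries, against 3.76, 4.01 and 4.00 FPKM in the MyoCre libraries. Mrpl19, next above it with a mean of 5.06 FPKM, was at 5.40, 4.39 and 5.72 FPKM in the K15SKO libraries, against 4.92, 4.83 and 5.11 FPKM in the MyoCre libraries. Mrps26 stood at 7.56, 5.66 and 6.10 FPKM in the K15SKO libraries, against 5.44, 6.09 and 6.07 FPKM in the MyoCre libraries. In all 3 genes K15SKO 2 was the lowest K15SKO library and the groups overlapped.

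The 1 gene below the threshold was Mrpl23, at 0.384, 0.627 and 0.286 FPKM in the K15SKO libraries, against 0.575, 0.711 and 0.682 FPKM in the MyoCre libraries. The row named Mrpl23-ps1, a pseudogene name, was at 73.1, 89.8 and 107 FPKM in the K15SKO libraries, against 90.5, 77.3 and 88.0 FPKM in the MyoCre libraries. The pair share sequence, so the authors' counting may have given reads of one to the other, and the level of Mrpl23 is uncertain. Likewise Mrpl48 has a pseudogene row, Mrpl48-ps, at 20.1, 17.1 and 19.7 FPKM in the K15SKO libraries, against 13.1, 13.5 and 14.4 FPKM in the MyoCre libraries. Mrpl48 itself measured 26.2, 24.1 and 23.3 FPKM in the K15SKO libraries, against 21.8, 20.3 and 20.9 FPKM in the MyoCre libraries, and its split from that copy is uncertain.

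The K15SKO libraries also differed among themselves gene by gene. The SD over 3 libraries on log2(FPKM + 1) had a median of 0.18 in K15SKO and 0.069 in MyoCre over the 76 genes, and it was larger in K15SKO for 71 of them, or 93.4%. Over all genes tested the medians were 0.22 and 0.12, with the larger SD in K15SKO for 77.3%. Taken library by library, K15SKO 1 lay above every MyoCre library for 62 of the 76 genes, K15SKO 2 for 35 and K15SKO 3 for 60. The shares of all genes that did so were 37.2%, 33.4% and 36.1%. K15SKO 1 lay below every MyoCre library for 6 genes, or 7.90%, K15SKO 2 for 21, or 27.6%, and K15SKO 3 for 7, or 9.21%. The shares of all genes that did so were 43.2%, 43.8% and 25.3%.

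A set of 7 genes lay above every MyoCre library in K15SKO 1 and below every one in K15SKO 3: Mrpl52, Mrpl55, Mrps12, Mrpl22, Mrps36, Mrps2 and Mrpl57. They were named after their values were seen. The share of all genes with this pattern was not counted, so the set is not shown to be particular to the mitochondrial ribosome. Mrpl52, a mitochondria-specific protein of the large subunit, had 134.2, 94.8 and 66.9 FPKM in the K15SKO libraries, against 70.2, 70.9 and 68.9 FPKM in the MyoCre libraries. Mrpl57, also of the large subunit, was at 16.4, 9.54 and 7.44 FPKM in the K15SKO libraries, against 10.04, 10.8 and 9.27 FPKM in the MyoCre libraries. Mrpl55 stood at 65.5, 64.5 and 38.4 FPKM in the K15SKO libraries, against 58.2, 56.7 and 57.3 FPKM in the MyoCre libraries. In these 3 genes the MyoCre libraries lay close together while K15SKO 1 and 3 lay on opposite sides of them. For Mrpl52 the log2 difference was 0.43 ± 0.24 (SE, limma adjusted p = 0.377), and without K15SKO 3 it was 0.68 with an adjusted p of 0.036. The set was defined by low values in K15SKO 3, so leaving out that library raises the difference by construction. In that setting 10.8% of all genes were called higher, so this adjusted p does not single out Mrpl52.

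A second set was low in K15SKO 2 alone. Mrpl42, Mrpl54, Mrps18a, Mrps24, Mrps9, Mrpl46, Mrps11, Mrpl19 and Mrps25 lay above every MyoCre library in K15SKO 1 and 3 and below every one in K15SKO 2. Mrps11, a relative of bacterial S11 in the platform of the small subunit, was at 18.8, 12.8 and 19.3 FPKM in the K15SKO libraries, against 16.4, 16.3 and 16.9 FPKM in the MyoCre libraries. Mrps11 and Mrpl46 overlap each other on opposite strands, so their levels are not independent if strand was not used. A further 6 genes, Mrpl28, Mrps15, Mrpl16, Mrpl50, Mrpl3 and Mrpl1, lay below every MyoCre library in K15SKO 1 and 2 and not in K15SKO 3. The gene with the most negative difference is among them: Mrpl50 measured 25.9, 25.6 and 30.8 FPKM in the K15SKO libraries, against 30.3, 31.6 and 32.6 FPKM in the MyoCre libraries (log2 difference -0.20 ± 0.11 SE, limma adjusted p = 0.374). The shares of all genes with either of these patterns were not counted.

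**Figure D4:**
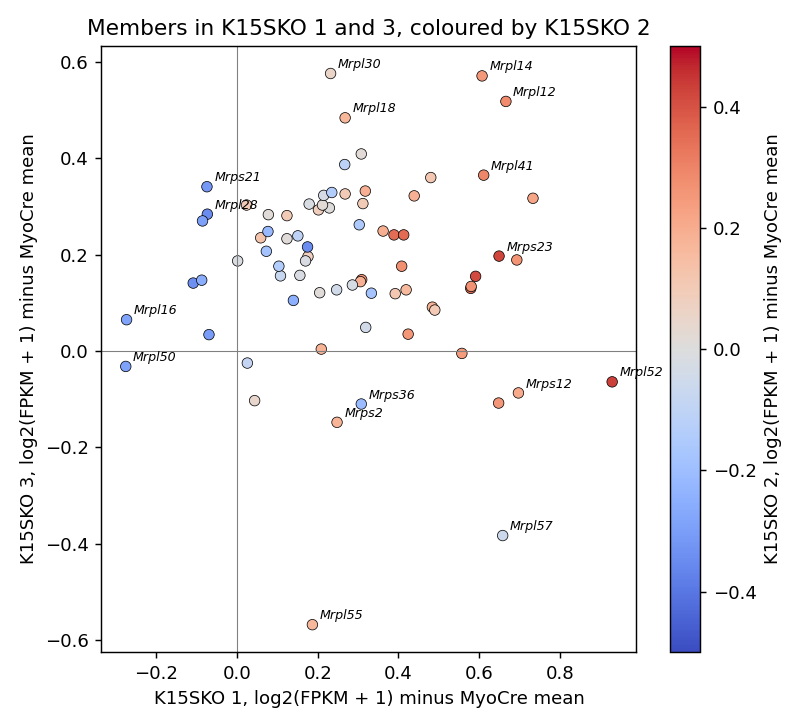
Deviation of each of the 76 genes from its MyoCre mean on log2(FPKM + 1) in K15SKO 1 (horizontal) and K15SKO 3 (vertical), coloured by the deviation in K15SKO 2. Most genes lie above 0 in both, Mrpl52, Mrps12, Mrpl57 and Mrpl55 lie right of 0 and below it, and Mrpl16 and Mrpl50 lie left of 0.

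The differences of all genes varied with transcript length in these libraries, so the 76 genes were set beside protein-coding genes of the same length class. The class was set by the longest annotated transcript, which need not be the one expressed. Over 2500 bases of longest annotated transcript, 29 genes had a median log2 difference of 0.17, against -0.078 for 7046 protein-coding genes. From 1001 to 2500 bases, 30 genes had a median of 0.16, against 0.089 for 2914. Up to 1000 bases, 17 genes had a median of 0.14, against 0.20 for 452. The median of the mitochondrial ribosomal genes lay above that of protein-coding genes in the long and middle classes and below it in the short one. The protein-coding genes include the mitochondrial ribosomal ones, and no test was made between them. From long to short, 89.7%, 86.7% and 64.7% of them were above 0, against 39.1%, 60.9% and 74.6% of protein-coding genes. All 3 K15SKO libraries lay above all 3 MyoCre libraries for 37.9%, 33.3% and 23.5% of them, against 9.25%, 19.2% and 26.1%. In the short class both shares were thus below those of protein-coding genes. The 452 short genes had medians of 0.35, 0.16 and 0.11 in K15SKO 1 to 3, so that the length trend was strongest in K15SKO 1; its part in the values of single genes was not tested.

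The genes lie on 17 chromosomes, with 10 on chromosome 11, 8 on chromosome 17 and 7 on chromosome 6. Exons of 32 of them overlap another annotated gene, 27 on the opposite strand. Without overlap, 44 genes had a median log2 difference of 0.17 with 32 above 0; with overlap, 32 genes had a median of 0.15 with 31 above 0. Of the 10 genes with the smallest p, Mrpl12, Mrpl24 and Mrps18c overlap Gm16755, Rrnad1 and Gm43511, which averaged 0.0273, 3.31 and 0.102 FPKM over the 6 libraries. Some partners of other genes are abundant respiratory chain genes: Ndufs6, beside Mrpl36, averaged 278.9 FPKM in K15SKO and 254.7 FPKM in MyoCre, and Ndufb5, beside Mrpl47, averaged 453.5 FPKM in K15SKO and 369.8 FPKM in MyoCre.

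In all, 30 genes start within 1000 bases of a gene that runs the other way, and in 21 such pairs the neighbour was tested and is not itself a mitochondrial ribosomal gene. The neighbours had a median log2 difference of 0.10, with 12 of 21 above 0, and the mitochondrial ribosomal genes of these pairs had a median of 0.15. In 1 further pair, Mrpl46 and Mrps11, both are mitochondrial ribosomal genes. Mrps12 starts head to head with Sars2, the mitochondrial seryl-tRNA synthetase. Sars2 had 7.28, 7.55 and 8.45 FPKM in the K15SKO libraries, against 7.96, 7.19 and 9.71 FPKM in the MyoCre libraries. The high value of Mrps12 in K15SKO 1 thus had no counterpart in Sars2, whose log2 difference was -0.08 (limma adjusted p = 0.729).

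Differences were set beside the promoter letters as a description. The 24 genes with ETS letters had a median log2 difference of 0.24 and the 43 without them 0.15. For YY1 letters the medians were 0.14 in 12 genes with them and 0.19 in 55 without, and for NRF1 letters 0.18 in 8 genes with them and 0.18 in 59 without. Of the 4 genes printed above, Mrps23 and Mrps18c lay above MyoCre in all 3 K15SKO libraries, and Mrpl52 and Mrps12 in K15SKO 1 and 2 only. These 4 were chosen for high values in K15SKO 1, so they say nothing about a link of the letters with the differences.

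Proteins of the same ribosome that do not carry the Mrp name were looked at next. All 6 had a log2 difference above 0, with a median of 0.20; limma called 0 of them, 0 had an unadjusted p under 0.05, and groups did not overlap in 3, all higher in K15SKO, as in 13.4% of all genes. Ict1, the release factor relative built into the large subunit and now named Mrpl58, was at 33.4, 31.5 and 32.5 FPKM in the K15SKO libraries, against 26.6, 23.8 and 30.0 FPKM in the MyoCre libraries (log2 difference 0.27, limma adjusted p = 0.303). Aurkaip1, of the small subunit, stood at 87.7, 83.3 and 90.0 FPKM in the K15SKO libraries, against 75.2, 69.6 and 79.9 FPKM in the MyoCre libraries (log2 difference 0.22, limma adjusted p = 0.339). Chchd1, also of the small subunit, was the third whose groups did not overlap. Dap3, its GTP-binding protein, was at 28.8, 34.4 and 38.2 FPKM in the K15SKO libraries, against 33.8, 31.5 and 34.7 FPKM in the MyoCre libraries, with K15SKO libraries on both sides of MyoCre.

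The factors that work with the ribosome gave a median log2 difference of 0.054 over 16 genes, 10 of them above 0. Limma called 0 of the 16, and 2 were higher at an unadjusted p under 0.05, or 12.5%, near the 8.43% of all genes. Mtif3, the initiation factor that frees the small subunit, measured 13.5, 14.4 and 12.3 FPKM in the K15SKO libraries, against 9.74, 9.83 and 10.5 FPKM in the MyoCre libraries (log2 difference 0.38 ± 0.10 SE, limma adjusted p = 0.269). Tsfm, the exchange factor of the elongation factor Tu, had 21.0, 15.5 and 14.2 FPKM in the K15SKO libraries, against 11.43, 11.49 and 12.24 FPKM in the MyoCre libraries (log2 difference 0.47 ± 0.15 SE, limma adjusted p = 0.273). Neither overlapped between the groups, and K15SKO 2 was the highest library for Mtif3 and K15SKO 1 for Tsfm. Rmnd1, which anchors translation at the inner membrane, had a log2 difference of 0.27 (limma adjusted p = 0.303).

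Assembly factors and enzymes that modify the ribosomal RNA were counted likewise. Of 23 tested, 7 had a log2 difference above 0, or 30.4%, against 48.0% of all genes, and 16 below; the median was -0.12, and limma called 0, with 0 at an unadjusted p under 0.05. Rbfa, which matures the small subunit, was at 27.3, 24.2 and 23.8 FPKM in the K15SKO libraries, against 20.4, 18.7 and 23.0 FPKM in the MyoCre libraries. Rpusd4, a pseudouridine synthase for the large ribosomal RNA, stood at 4.93, 6.08 and 6.40 FPKM in the K15SKO libraries, against 6.77, 6.43 and 7.62 FPKM in the MyoCre libraries. Groups did not overlap in either gene, in opposite directions, and the log2 differences were 0.27 and -0.23 (limma adjusted p of 0.310 and 0.358). Ddx28, an RNA helicase of the large subunit, had a log2 difference of -0.20 (limma adjusted p = 0.405).

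The 17 mitochondrial tRNA synthetases, which charge the tRNAs, had a median log2 difference of 0.044, with 9 above 0. Limma called 0 of them, and 0 had an unadjusted p under 0.05. Lars2, for leucine, was at 50.6, 42.3 and 52.4 FPKM in the K15SKO libraries, against 38.5, 40.1 and 42.1 FPKM in the MyoCre libraries, without overlap (log2 difference 0.26, limma adjusted p = 0.322). Hars2 and Wars2, for histidine and tryptophan, each had a log2 difference of -0.19 (limma adjusted p of 0.392 and 0.469).

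Genes that copy and process mitochondrial DNA and RNA had a median log2 difference of -0.038 over 18 genes. Limma called 0 of them. At an unadjusted p under 0.05, 1 of the 18 was higher, or 5.56%, and 3 were lower, against 8.43% and 8.12% of all genes. Fastkd3, an RNA-binding protein, measured 3.58, 3.97 and 4.54 FPKM in the K15SKO libraries, against 4.91, 5.02 and 5.998 FPKM in the MyoCre libraries (log2 difference -0.33, limma adjusted p = 0.283). Trmt10c, a subunit of the enzyme that cuts tRNAs out of mitochondrial transcripts, had 6.85, 5.92 and 7.72 FPKM in the K15SKO libraries, against 8.19, 8.97 and 8.60 FPKM in the MyoCre libraries (log2 difference -0.30, limma adjusted p = 0.288). In both genes all K15SKO libraries lay below all MyoCre libraries, the opposite side from Mrpl12 and Mtif3. Mterf2, a regulator of mitochondrial transcription, had a log2 difference of 0.26 (limma adjusted p = 0.296).

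Nuclear regulators known to act on such genes had overlapping groups throughout. Of 10 tested, 2 had a log2 difference above 0, with a median of -0.16; limma called 0 and 0 had an unadjusted p under 0.05. Ppargc1a, the coactivator PGC-1α of mitochondrial biogenesis, was at 6.38, 4.92 and 14.8 FPKM in the K15SKO libraries, against 8.88, 17.7 and 17.4 FPKM in the MyoCre libraries. Myc, a driver of ribosome production, stood at 4.17, 2.60 and 3.49 FPKM in the K15SKO libraries, against 1.54, 2.25 and 3.17 FPKM in the MyoCre libraries. Their log2 differences were -0.77 and 0.43 (limma adjusted p of 0.367 and 0.352), and that of Pprc1, a relative of PGC-1α, was -0.33 (adjusted p = 0.379).

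Cytosolic ribosomal proteins and respiratory chain subunits give the nearest gene families for comparison. The 72 cytosolic ribosomal protein genes had a median log2 difference of 0.32, with 0 called by limma. At an unadjusted p under 0.05, 29 were higher, or 40.3%, against 8.43% of all genes. Their library medians were 0.56, 0.30 and 0.13 in K15SKO 1 to 3, an order in which K15SKO 3 came last. The 86 respiratory chain genes had a median of 0.015, with library medians of -0.022, -0.25 and 0.35 in K15SKO 1 to 3. Genes of the mitochondrial ribosome, with 0.26, 0.069 and 0.19, were lowest in K15SKO 2 as the respiratory chain genes were and high in K15SKO 1 as the cytosolic ribosomal genes were. The macrophage and regenerating fibre markers given above were highest in K15SKO 1 and the muscle markers in K15SKO 3, and their part in this order was not tested.

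**Figure D5:**
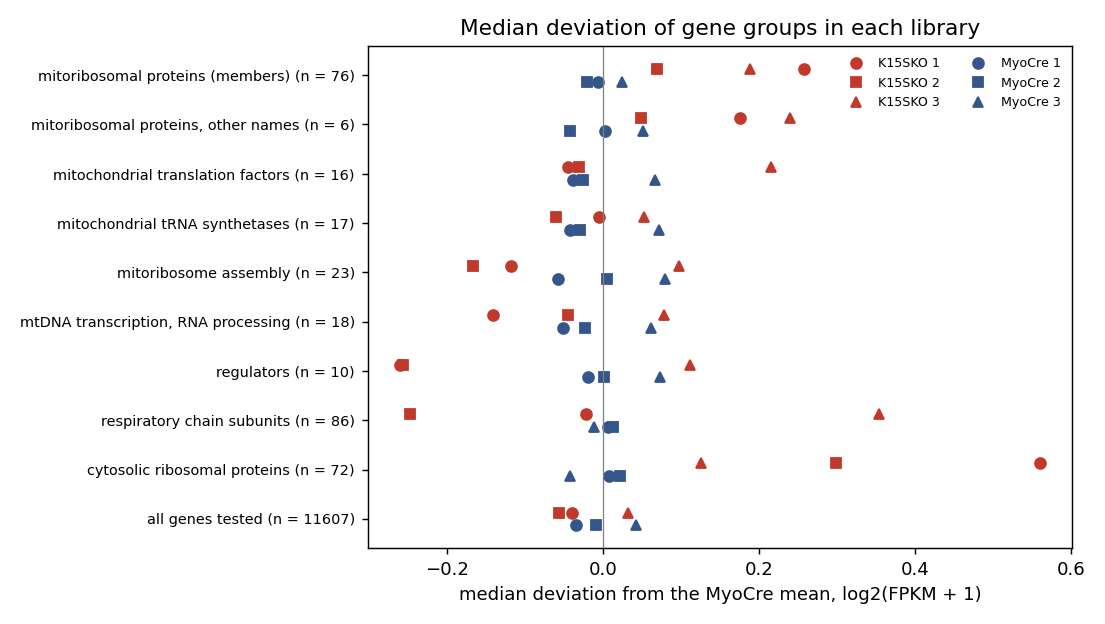
Median deviation from the MyoCre mean on log2(FPKM + 1) of the mitochondrial ribosomal genes and other gene groups in each library, K15SKO in red and MyoCre in blue. The K15SKO libraries of the mitochondrial ribosomal genes lie at 0.26, 0.069 and 0.19, those of the cytosolic ribosomal genes at 0.56, 0.30 and 0.13, and those of the respiratory chain genes at -0.022, -0.25 and 0.35.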

How the data were processed

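Total RNA from quadriceps was sequenced in 3 K15SKO and 3 MyoCre libraries, made by Illumina methods per the labels' protocols. The authors deposited FPKM values for 23314 genes; STAR, Cufflinks, Cuffdiff and mm10 are named in the submitters' processing notes. The sources used here give no versions, strandedness or read totals, and the table does not name its unit, which was taken from the tools and the range of values. FPKM keeps no counts, so counting error cannot be computed. Columns were matched to samples by their descriptions, and 0 columns belonged to no sample.

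The fit used limma 3.58.1 (R 4.3.3, eBayes with trend) on log2(FPKM + 1) of the 11607 genes averaging 1 FPKM or more, two-sided, with Benjamini-Hochberg adjustment over all of them and a threshold of 0.05. This scale understates changes of low genes. Python 3.11.15 with pandas 2.3.3, numpy 2.4.6, scipy 1.17.1 and matplotlib 3.10.9 served for tables and plots. Coordinates and transcript lengths came from GENCODE M21 on GRCm38, the mm10 assembly, where 23193 IDs matched without their version and 18068 with it. Acta1, Ckm and Myh4 were not analysed here.

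The genes, the lists and the tests were chosen with earlier results of these data known. Named with values were up to 10 genes whose groups did not overlap, by smallest p, the 4 highest and 4 lowest, genes chosen for role, the genes about the level threshold and up to 3 per list. Mrpl48, Mrpl50, Mrpl52, Mrpl55, Mrpl57 and Mrps11 were added after their values were seen. Alternatives were other pseudocounts, filters, scalings and eBayes settings, a block for the replicate number, array weights, dropping genes at 0 in a whole group, and each library left out in turn.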

Additional observations from a re-analysis of the deposited data

How the results depend on the processing

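The median log2 difference over the 76 genes stayed above 0 in all 17 alternatives, from 0.114 with array weights to 0.229 without K15SKO 2. Genes called by limma over the whole table, 6 as reported, were 3 with no filter, 2398 with array weights, 3 with the replicate number as a block, 0 without genes at 0 in a whole group, and 3 to 2743 with 1 library left out, the highest without K15SKO 3. Of the 76 genes, 0 as reported, 7 were called with array weights (Mrpl12, Mrps23, Mrps18c, Mrpl24, Mrpl41, Mrps30 and Mrpl40) and 0 to 6 with 1 library left out, the 6 without K15SKO 3 (Mrpl52, Mrps23, Mrps18c, Mrpl24, Mrps30 and Mrpl40). With array weights 10.7% of all genes were called higher and 9.94% lower. The 15 higher at an unadjusted p under 0.05 were 5 to 22 with 1 library left out: 6, 18 and 22 without K15SKO 1, 2 and 3, and 5, 8 and 6 without MyoCre 1, 2 and 3. Those lower, 0 as reported, were 2 with array weights and 0 to 2 with 1 library left out. The shares of all genes at an unadjusted p under 0.05 were not counted without K15SKO 1, without a MyoCre library or with the block. Counts of the 76 in those settings thus cannot be set beside all genes. Whether the replicate numbers pair the samples could not be settled with 3 libraries per group. The residual correlations of equal numbers were 0.002, 0.085 and 0.094. Each K15SKO library correlated best with its own number, but MyoCre 1 correlated best with K15SKO 2 (0.007). The block gave 11 higher at an unadjusted p under 0.05 and called 0 of the 76.

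Signs turned for 10 of the 29 genes named with values, all with a reported log2 difference between -0.10 and 0.14. Mrps21 was at 0.011 under median-of-ratios scaling and ran from -0.197 (without K15SKO 3) to 0.133 (without K15SKO 2) with 1 library left out, above 0 also without K15SKO 1 (0.010) or MyoCre 3 (0.044). Mrps36 was at 0.023 under that scaling and ran from -0.161 (without K15SKO 1) to 0.099 (without K15SKO 2), above 0 also without K15SKO 3, MyoCre 1 or MyoCre 3. With array weights Mrpl19 was at -0.050, Mrpl42 at -0.002, Mrps18a at -0.009 and Mrps25 at -0.082. With 1 library left out, Mrpl19 ran from -0.020 (without K15SKO 3) to 0.14 (without K15SKO 2), Mrps25 from -0.057 to 0.14 and Mrpl3 from -0.226 to 0.016, with the same libraries at the ends. Mrpl55 was at 0.109 with array weights and ran from -0.201 (without K15SKO 1) to 0.177 (without K15SKO 3), Mrpl57 from -0.222 (without K15SKO 1) to 0.298 (without K15SKO 3). Mrps11 was at -0.017 under quantile scaling, at -0.166 with array weights and from -0.085 (without K15SKO 3) to 0.195 (without K15SKO 2), below 0 also without K15SKO 1. The cause was not tested. The remaining 458 of 492 values of these genes kept their sign and their side of the threshold, and 11 moved past it. Without read totals the depth behind a level is unknown, which limits the genes of a few FPKM most.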
